A study of Homo sapiens with 6 samples.

Results

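BST2, the IFITM genes and other genes that interferon is known to induce were followed in human definitive endoderm. The 9 genes are a list of names, with no threshold on a measured value: BST2, IFITM1, IFITM2, IFITM3, ISG15, IFI6, IFI16, IFI27 and IRF1, out of 58830 genes with a value. Of these, 17711 genes entered the test, all 9 among them. The 9 were chosen with earlier results of these data known. RNA-seq of total RNA gave 6 libraries from HuES8, an established human embryonic stem cell line. The DE group is 3 libraries of wild-type cells, and the KD group is 3 libraries of cells with GATA6-AS1, the long noncoding RNA antisense to the transcription factor gene GATA6, knocked down. Both groups followed the same differentiation over 3 days in DMEM-F12 with 0.2% BSA. Activin A at 100 ng/mL was present throughout, and CHIR at 2.5 µM was added on day 1 alone. The sources used here do not give the knockdown method, any control construct in the wild-type cells, or the number of clones or cultures. The p-values therefore measure only how these libraries spread, and that spread may be technical. No interferon treatment is named for either group.

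Interferons are secreted proteins that bind paired receptors, activate JAK kinases and, through STAT and IRF factors, switch on a large set of genes that restrict viruses. The interferon-stimulated response element (ISRE) is the DNA sequence bound by IRF factors and by a complex of STAT and IRF proteins, and the GAS element is bound by STAT dimers. BST2, also called tetherin, holds budding virus particles at the cell surface. The IFITM proteins sit in membranes and hinder the fusion of incoming viruses. ISG15 is a ubiquitin-like protein that is joined to other proteins, IFI16 senses DNA, IFI6 and IFI27 belong to 1 family of small membrane proteins, and IRF1 is a transcription factor. Pluripotent stem cells are known to respond weakly to interferon and to express a subset of these genes, IFITM1 among them, without it.

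The level of the targeted gene was read first. The title and genotype of KD replicate 3 name GATA6-AS1, while its source label spells the name GATA6-AS14, which was taken as a typing error. GATA6-AS1 was at 389, 421 and 313 TPM in DE against 179.7, 163 and 126 TPM in KD (TPM is a length-scaled share of a library's transcripts, which add up to 1000000), a log2 change of -1.26 (SE 0.164, adjusted p = 0.0128 in limma). GATA6 changed by -0.66 with an adjusted p of 0.0648, and of 0.00500 with the replicate number as a block. Depth, estimated from the steps between low values, was 18640810 to 24510572 reads per library. The mitochondrial genes held 24.6% to 38.0% of all TPM, with replicate 3 of each group highest at 38.0% and 36.2%.

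The promoters of BST2, IFITM1 and IFITM3 hold ISRE-like letters. The sequences below, from RefSeq on GRCh38.p14, are 30-base stretches on the gene's own strand, and capitals mark each match to the ISRE core GAAANNGAAA on either strand. They are shown because BST2, which fell, and IFITM1 and IFITM3, which did not, hold the same core close to their start sites. ISG15 and IFI27 are given beside them.
BST2, chr19:17405738-17405767, minus strand: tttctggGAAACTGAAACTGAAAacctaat
IFITM1, chr11:313990-314019, plus strand: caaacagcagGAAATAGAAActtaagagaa
IFITM1, chr11:314024-314053, plus strand: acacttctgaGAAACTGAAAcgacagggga
IFITM3, chr11:320884-320913, minus strand: gGAAAAGGAAActgttgaGAAACCGAAAct
ISG15, chr1:1013377-1013406, plus strand: gcctcggGAAAGGGAAACCGAAActgaagc
IFI27, chr14:94110625-94110654, plus strand: cagTTTCGGTTTCctgGAAAATGAAAccta
In BST2 the matches begin 130 and 124 bases before the start of the transcript and overlap each other. The same overlap occurs in ISG15, where they begin 113 and 107 bases before the start. The IFITM1 matches begin 40 and 6 bases before its start, and those of IFITM3 52 and 35 bases before. IFI6 held 3 matches, 156, 115 and 93 bases before its start. The core was searched from 250 bases before to 50 bases after each start. It was present in 6 of the 8 genes with a promoter entry, all but IFI16 and IRF1. IFITM2 was the gene without an entry. Of 35116 promoter entries, 3.57% held the core. A gene was counted if any of its entries held the core, so the gene count and the share of entries differ in unit. The GAS core TTCNNNGAA was found in BST2, IFITM1, IFI27 and IRF1, and in 7.66% of all promoter entries. In BST2 and IFITM1 a GAS match overlaps the first letters of an ISRE match, and in IFI27 it overlaps both. A match is a match of letters, and binding was not measured.

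The 9 genes spanned from 1.23 to 1780.1 TPM in the wild-type endoderm. IFITM1 was the highest at 1780.1 ± 80.8 TPM (SD, n = 3), the 37th highest of all 58830 genes in DE. IFITM3 followed at 462 ± 16.8 TPM and BST2 at 227 ± 16.9 TPM, ranks 170 and 436. IFITM2, in the same gene cluster as IFITM1, was at 36.9 ± 1.24 TPM. These top 4 did not overlap in any library. ISG15 at 13.7 ± 3.77 TPM and IFI16 at 10.4 ± 1.51 TPM came next, and their DE libraries overlapped. IRF1 at 1.71 ± 0.136, IFI6 at 1.44 ± 0.543 and IFI27 at 1.23 ± 0.107 TPM were lowest, and IFI6 overlapped both of the others. The order of the genes depends on the length by which TPM is scaled. The values matched whole reads at exon lengths that join the exons of all transcripts of a gene. That length is 7799 bases for IRF1 and 941 for ISG15. IRF1 had 81 to 143 estimated reads per library and ISG15 57 to 103, so the lower TPM of IRF1 reflects its length. The IFITM levels are uncertain for the shared sequence described below. In the KD libraries the order of the top 6 was the same, but ISG15 (10.5 to 16.8 TPM) no longer overlapped IFI16 (6.003 to 6.78 TPM). In bulk RNA, fewer cells expressing a gene and less RNA per cell cannot be told apart.

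**Figure D1:**
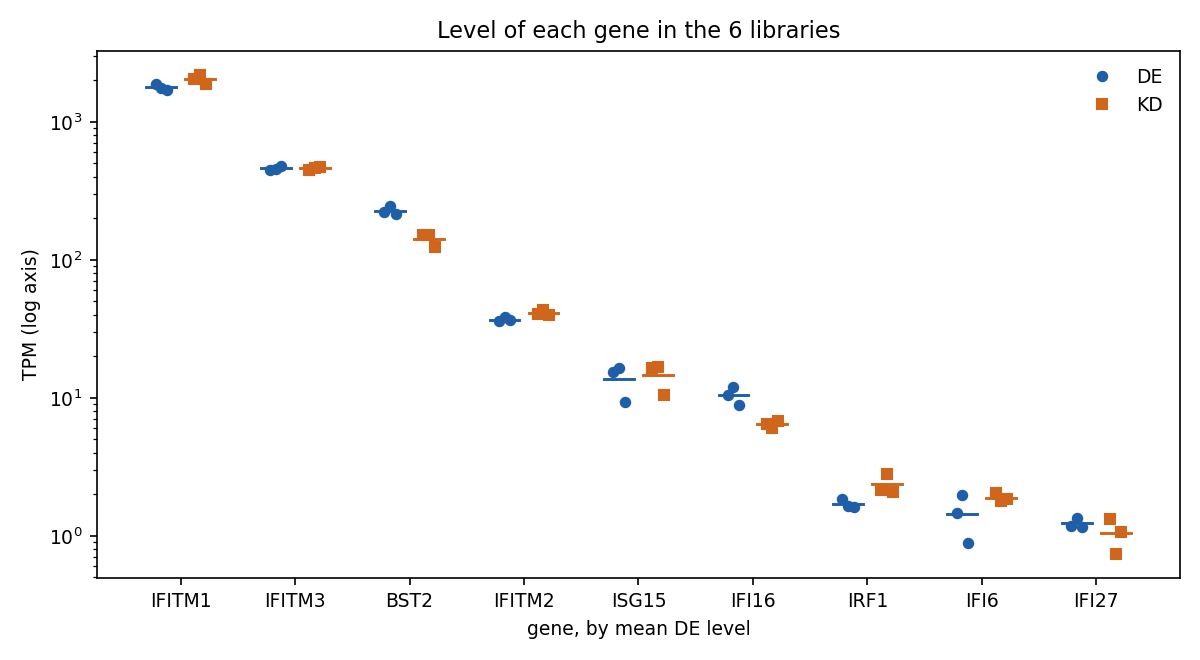
TPM on a log axis for each of the 9 genes, ordered by mean DE level, with 1 point per library and the mean of each group. IFITM1 lies between 1709 and 2197 TPM in all 6 libraries, BST2 and IFI16 are the genes whose 3 KD points all lie below the 3 DE points, and IRF1, IFI6 and IFI27 lie between 0.740 and 2.82 TPM.

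The question the design puts is how endoderm with GATA6-AS1 knocked down differs from wild-type endoderm, here in its interferon-induced genes. BST2 fell, and no other of the 9 passed the test. Every gene was compared on log2(TPM + 1) with limma and the Benjamini-Hochberg adjustment over all 17711 genes, at a threshold of 0.05. The background of the same test was 1.5% of genes called lower and 1.77% called higher in KD. Of the 9 genes, 1 was called lower and 0 higher. With the replicate number as a block, 2 were lower, BST2 and IFI16, against a background of 6.62% lower and 5.88% higher. Counted without a test, the 3 KD libraries were all below the 3 DE libraries for 2 genes, BST2 and IFI16, where 10.7% of tested genes did so. They were all above for 3 genes, IFITM1, IFITM2 and IRF1, where the background was 10.1%. The 4 others overlapped. The median log2 change of the 9 genes was 0.10, and that of all tested genes was -0.0050. At an unadjusted level, the exact permutation test of 3 against 3 libraries cannot go below 0.1, which it reached, 2-sided, for BST2, IFITM1, IFITM2, IFI16 and IRF1.

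**Figure D2:**
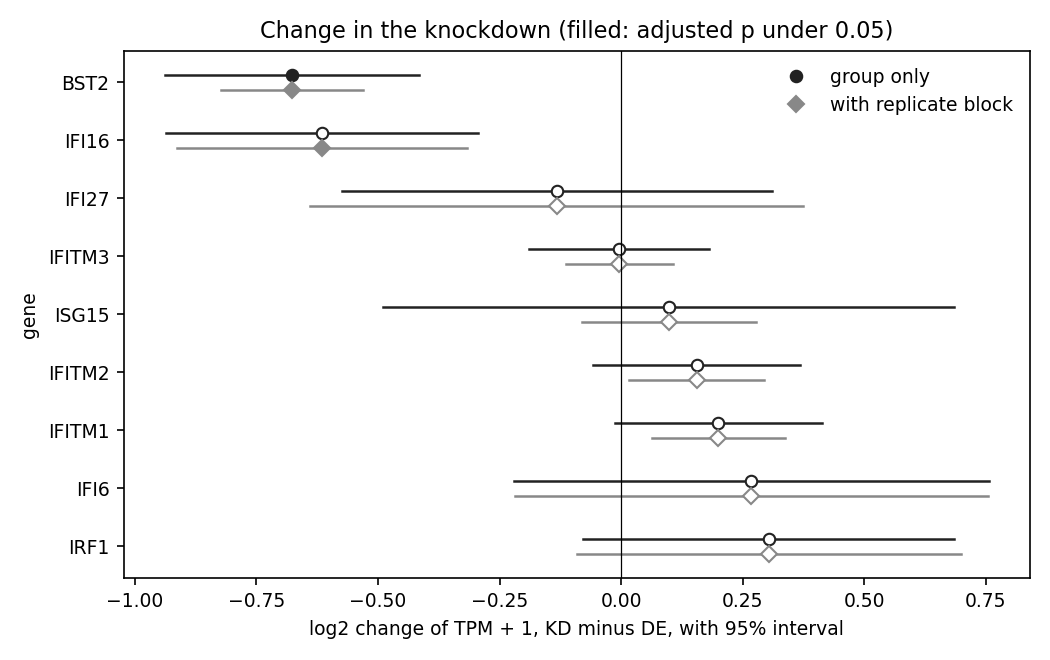
Log2 change of TPM + 1, KD minus DE, for each of the 9 genes, with its 95% interval from limma. Each gene has 2 points, from the fit on group alone and from the fit with the replicate block. Filled points have an adjusted p under 0.05: BST2, at -0.68, in both fits, and IFI16, at -0.61, with the block only. In the fit on group alone the intervals of the other 7 cross 0. With the block, those of IFITM1 (0.06 to 0.34) and IFITM2 (0.02 to 0.29) do not.

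BST2 fell to 0.625 of its wild-type level. Its TPM was 222, 246 and 214 in DE against 151, 151 and 125 in KD. Every KD library was below every DE library, and the gap between the nearest ones, 214 and 151, exceeded the spread within either group. The mean went from 227 ± 16.9 to 142 ± 15.3 TPM (SD, n = 3). The log2 change was -0.68 (SE 0.111, 95% interval -0.94 to -0.42, adjusted p = 0.0240 in limma). By replicate number the log2 change was -0.56, -0.70 and -0.77. Since the groups do not overlap, any pairing of the libraries gives 3 falls. BST2 stood on 951 to 1778 estimated reads per library, and none of its 50-base stretches occurs in another gene. The fall was moderate among the genes called lower: 195 of those 265 genes fell by more. The gene (ENSG00000130303.12) lies on chr19:17402939-17405648, minus strand, with 1119 exonic bases in GENCODE 29 on GRCh38.

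The BST2 call rests on all but one of the libraries. Leaving out DE replicate 1, DE replicate 2 or any 1 of the KD replicates took the adjusted p to between 0.0601 and 0.116, while without DE replicate 3 it was 0.0327. Over those 6 fits the log2 change stayed between -0.72 and -0.59. With every gene of the table tested, low ones included, the adjusted p was 0.0629.

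IFI16, the DNA sensor, had a change of similar size that did not pass. Its TPM was 10.5, 11.9 and 8.89 in DE and 6.499, 6.003 and 6.78 in KD, so that the groups did not overlap. The mean was 10.4 ± 1.51 and 6.43 ± 0.392 TPM, a ratio of 0.616. The log2 change was -0.61 (SE 0.137, 95% interval -0.94 to -0.29) with an adjusted p of 0.0613. With the replicate block the adjusted p was 0.0283. It also passed without the mitochondrial genes (0.0161), with quantile normalization (0.0177) and without DE replicate 3 (0.0361), a library in which IFI16 was the lowest of its group. It did not pass with no filter on low values (0.141), or without any 1 of the other 5 libraries (0.129 to 0.258). Of 19 alternatives, 8 passed and 11 did not. The level of BST2 relative to IFI16 was 22.0 ± 1.82 in DE and 22.2 ± 3.50 in KD, and the exact permutation test of that ratio gave p = 1.0 (2-sided). IFI16 (ENSG00000163565.18) lies on chr1:158999968-159055155, plus strand.

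**Figure D3:**
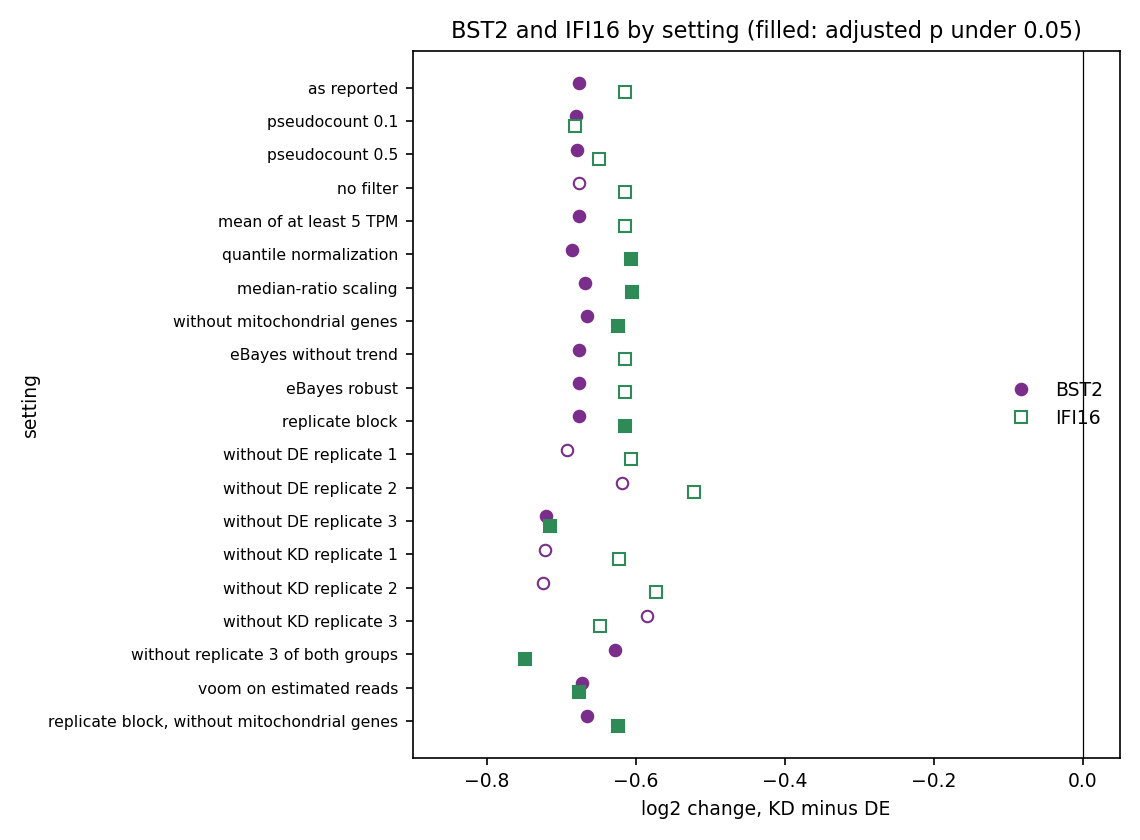
Log2 change of BST2 and IFI16 under the main and the alternative settings, 1 row per setting, filled where the adjusted p is under the threshold. BST2 ranges from -0.72 to -0.59 and IFI16 from -0.75 to -0.52, all below 0, while the filling changes from row to row.

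None of the 3 IFITM genes fell with BST2 or passed as higher. IFITM1 was at 1868, 1763 and 1709 TPM in DE and at 2051, 2197 and 1894 TPM in KD. All 3 KD libraries were above all 3 DE libraries, by a gap smaller than the spread within either group. The log2 change was 0.20 (SE 0.0906, 95% interval -0.01 to 0.41, adjusted p = 0.364), which did not pass. IFITM2 was at 36.1, 38.4 and 36.4 TPM in DE and at 40.2, 43.5 and 40.1 TPM in KD. It too was higher in every KD library, with a log2 change of 0.16 (SE 0.0905, 95% interval -0.06 to 0.37, adjusted p = 0.521). IFITM3 was at 451, 453 and 481 TPM in DE and at 446, 460.4 and 475 TPM in KD. These values interleave, with means of 462 ± 16.8 and 461 ± 14.2 TPM. Its log2 change was -0.0040 with a 95% interval of -0.19 to 0.18, so a change larger than that in either direction lies outside the interval.

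Ratios within a library set these genes against each other without the total of the library. BST2 relative to IFITM1 was 0.119, 0.140 and 0.125 in DE and 0.0735, 0.0688 and 0.0657 in KD. The groups did not overlap, and the log2 difference of the ratio was -0.88 (exact permutation p = 0.1, the smallest possible). IFITM1 relative to IFITM3 was 3.86 ± 0.295 in DE and 4.45 ± 0.410 in KD, with overlap between the groups (exact permutation p = 0.2). IFITM1 relative to IFITM2 was 48.2 ± 3.14 and 49.6 ± 2.04 (exact permutation p = 0.6). IFITM3 relative to IFITM2 was 12.5 ± 0.701 and 11.2 ± 0.630 (exact permutation p = 0.2). These were 4 of 5 ratios computed, the other being that of BST2 to IFI16, and none could pass a threshold of 0.05 with 3 against 3 libraries.

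The IFITM genes share sequence. The 3 genes lie close together on chromosome 11. IFITM2 (ENSG00000185201.16) is on chr11:307631-315272, plus strand. IFITM1 (ENSG00000185885.15) lies within that annotated span, on chr11:313506-315272, plus strand. IFITM3 (ENSG00000142089.15) is on chr11:319669-327537, minus strand. In GENCODE 29, IFITM1 and IFITM2 have 351 exonic bases in common on the same strand, 32.5% of IFITM1 and 22.7% of IFITM2. Of the 50-base stretches of its transcripts, IFITM1 had 29.4% in common with IFITM2 and 9.18% with IFITM3. IFITM2 had 12.9% in common with IFITM3. The part in common with any other gene was 32.0% for IFITM1, 34.3% for IFITM2 and 35.2% for IFITM3. The noncoding gene AC136475.5, opposite to IFITM3, covers 21.3% of its exonic bases. IFITM2 stood on 350 to 500 estimated reads per library, and IFITM1 on 11917 to 16534. The sources used here do not say how the counting treated reads that fit more than 1 gene, so the 3 levels are uncertain. Whether the higher IFITM2 values in KD are separate from those of IFITM1 cannot be told for the same reason.

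ISG15 varied more between replicate numbers than between groups. It was at 15.3, 16.4 and 9.37 TPM in DE and at 16.6, 16.8 and 10.5 TPM in KD. Replicate 3 was the low one in both groups, which are the libraries with the largest mitochondrial share. With the mitochondrial genes left out of the total, replicate 3 was still lowest, at 15.1 and 16.5 TPM against 21.4 to 23.6 TPM in the others. The log2 change was 0.10 (SE 0.2502, 95% interval -0.49 to 0.69, adjusted p = 0.942). ISG15 (ENSG00000187608.9, chr1:1001138-1014540, plus strand) rested on 57 to 103 estimated reads.

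The last 3 genes were the lowest of the 9. IFI6, a mitochondrial and endoplasmic reticulum protein, was at 1.45, 1.98 and 0.895 TPM in DE and at 2.05, 1.77 and 1.86 TPM in KD, from 5 to 13 estimated reads. The groups overlapped, and the log2 change was 0.27 (SE 0.208, adjusted p = 0.676). IFI27 was at 1.18, 1.35 and 1.16 TPM in DE and at 1.33, 0.740 and 1.07 TPM in KD, from 20 to 36 estimated reads, again with overlap. Its log2 change was -0.13 (SE 0.188, adjusted p = 0.869). IRF1, the factor that binds ISRE-like DNA, was at 1.86, 1.66 and 1.61 TPM in DE and at 2.16, 2.82 and 2.09 TPM in KD, from 81 to 143 estimated reads. It was higher in all KD libraries, with a log2 change of 0.30 (SE 0.163, 95% interval -0.08 to 0.69, adjusted p = 0.469). The noncoding gene C5orf56 covers 22.0% of the exonic bases of IRF1 on the other strand and was listed at 0.0737 to 0.234 TPM. IFI6 (ENSG00000126709.14) lies on chr1:27666061-27672218, minus strand, IFI27 (ENSG00000165949.12) on chr14:94104836-94116698, plus strand, and IRF1 (ENSG00000125347.13) on chr5:132481609-132490798, minus strand.

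The rest of the interferon pathway was read from 9 lists of 149 further genes, of which 81 were tested. In that set 3 genes rose and 5 fell, where 1.77% of all tested genes rose and 1.5% fell, and the median log2 change was 0.0038. With the replicate block 7 rose and 12 fell, where 5.88% of all tested genes rose and 6.62% fell. The same shares are the background for each of the 9 lists below. The lists were chosen with earlier results of these data known, so these counts describe the lists and do not test them.

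At the top of the pathway, transcripts of the interferons themselves were at or near 0. None of the 21 ligand genes reached the level for testing, and 9 were listed at 0 in every library. The highest single value was 0.725 TPM, for IFNL3 in 1 DE library. The summed level of all 21 was 0 to 1.73 TPM in DE and 0.252 to 1.75 TPM in KD. All 9 receptor and JAK kinase genes were expressed, and 0 passed in either direction, with a median log2 change of -0.24. Those with the smallest p-values were IFNLR1, the receptor of type III interferon, at 9.53 ± 0.348 and 7.79 ± 0.720 TPM (adjusted p = 0.351), IL10RB, IFNGR2 and IFNAR2. IFNGR2, a chain of the interferon-gamma receptor, was at 37.3 ± 5.42 and 30.8 ± 5.65 TPM and passed as lower with the replicate block (adjusted p = 0.0405).

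The STAT and IRF factors carry the signal to the promoters. Of 15 STAT and IRF genes 12 were tested, 0 passed, and their median log2 change was -0.01. With the block 2 rose and 1 fell. IRF2BPL, a relative of the proteins that bind IRF2, was at 91.6 ± 10.7 and 122 ± 13.6 TPM (adjusted p = 0.171) and passed as higher under the block, with an adjusted p of 0.00659. IRF2, a repressor of IRF1 targets, was at 6.25 ± 0.473 and 7.48 ± 0.331 TPM (adjusted p = 0.436).

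Among 8 feedback genes, SOCS1 rose. SOCS1, an inhibitor of JAK kinases that interferon itself induces, was at 14.2, 19.2 and 13.9 TPM in DE and at 27.1, 28.1 and 24.1 TPM in KD. The groups stood clear of each other, with a log2 change of 0.72 (SOCS1, adjusted p = 0.0480). The list had 1 call without DE replicate 2 and 0 without any 1 of the other 5 libraries. SOCS3, the related inhibitor of gp130 signalling, was at 74.8 ± 13.4 and 54.6 ± 6.23 TPM (adjusted p = 0.234, and 0.0117 with the block). The ISG15 protease USP18 and the STAT inhibitor PIAS1 had adjusted p-values of 0.668 and 0.764.

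Of 18 sensors and adaptors 10 were tested and 0 passed. DDX58, which encodes the RNA sensor RIG-I, was at 19.2, 20.8 and 13.7 TPM in DE and at 12.7, 11.2 and 9.12 TPM in KD. It was lower in every KD library, but the spread among DE libraries was wide (log2 change -0.65, adjusted p = 0.133, and 0.00994 with the block). TRIM25, the ubiquitin and ISG15 ligase that activates RIG-I, was at 8.88 ± 0.518 and 12.6 ± 0.941 TPM (adjusted p = 0.0853, and 0.0170 with the block, as higher). The adaptors TICAM1 and MAVS had adjusted p-values of 0.186 and 0.572.

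Of the 45 genes listed as strongly inducible by interferon, 26 were too low to test. MX1 reached at most 0.217 TPM, OAS1 0.175 TPM and RSAD2 0.222 TPM, and IFI44L was listed at 0 in all 6 libraries. IFIT1, another classical target, was at 2.79 to 4.80 TPM with overlap between groups. Of the 19 tested, 2 rose and 3 fell, where 1.77% of all tested genes rose and 1.5% fell. The median log2 change of the 19 was 0.15. With the block 2 rose and 4 fell, where 5.88% of all tested genes rose and 6.62% fell. The gene added by the block was PLSCR1, at 177 ± 13.4 and 129 ± 10.3 TPM (adjusted p = 0.0622, and 0.00539 with the block). EPSTI1 fell from 45.4 ± 1.32 to 27.7 ± 1.59 TPM (log2 change -0.70, adjusted p = 0.0136). LAMP3, a lysosomal membrane protein, fell from 7.02 ± 0.891 to 3.34 ± 0.441 TPM (adjusted p = 0.0269), and LGALS3BP, a secreted galectin-binding protein, fell from 84.1 ± 3.03 to 61.3 ± 2.67 TPM (adjusted p = 0.0416). TRIM22, an antiviral ubiquitin ligase, rose from 0.325 ± 0.124 to 2.05 ± 0.117 TPM (log2 change 1.204, adjusted p = 0.0173). TRIM22 reached 1 TPM in the KD libraries only, so it entered the test through the group in which it was high. UBE2L6, the conjugating enzyme for ISG15, rose from 19.4 ± 1.09 to 28.8 ± 1.67 TPM (adjusted p = 0.0355). Without 1 library the 19 tested genes gave 0 to 2 higher and 0 to 2 lower calls, and 0 of either when the library left out was DE replicate 1, or replicate 1 or 2 of KD.

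Other restriction factors, which block viruses directly as BST2 and the IFITM proteins do, included 2 that fell, as BST2 did. Of 21 listed, 16 were tested and 0 rose, with a median log2 change of -0.22. Of all tested genes, 1.5% fell and 1.77% rose. LY6E, a surface protein anchored by a lipid as BST2 is, was at 64.1, 57.2 and 50.8 TPM in DE and at 38.0, 38.3 and 31.4 TPM in KD (log2 change -0.66, adjusted p = 0.0418). APOBEC3G, a cytidine deaminase, fell from 20.9 ± 1.30 to 13.9 ± 0.416 TPM (adjusted p = 0.0350). The list had 2 lower calls without DE replicate 3 and 0 without any 1 of the other libraries. APOBEC3F, next in p-value, was at 37.1 ± 0.575 and 26.4 ± 2.22 TPM (adjusted p = 0.0529, and 0.0122 with the block), and ZC3HAV1, which binds viral RNA, had an adjusted p of 0.204, and 0.0489 with the block. With the block 4 of the 16 were lower and 1 was higher, where 6.62% of all tested genes were lower and 5.88% higher. The higher one was SAMHD1, an enzyme that degrades nucleotides, at 1.90 ± 0.654 and 3.45 ± 0.958 TPM (adjusted p = 0.273, and 0.0385 with the block).

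Of the genes that carry and attach ISG15, UBE2L6 rose. Of 7 listed, ISG15 included, 6 were tested, 0 fell, and the median log2 change was 0.23. The list had 1 call without DE replicate 3 and 0 without any 1 of the other 5 libraries. With the block TRIM25 was also higher, while the ligase HERC5 had an adjusted p of 0.698. Among 13 relatives of the 9 genes, 8 were tested and 0 passed, with a median log2 change of -0.08. IFI27L2 was at 7.16 ± 0.381 and 5.22 ± 0.195 TPM (adjusted p = 0.142), and IFITM5, a bone-specific relative in the IFITM cluster, was at 4.15 ± 1.01 and 2.32 ± 0.338 TPM (adjusted p = 0.148). TMEM91 and SYNDIG1, from the wider family of IFITM-like proteins, had adjusted p-values of 0.507 and 0.525.

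**Figure D4:**
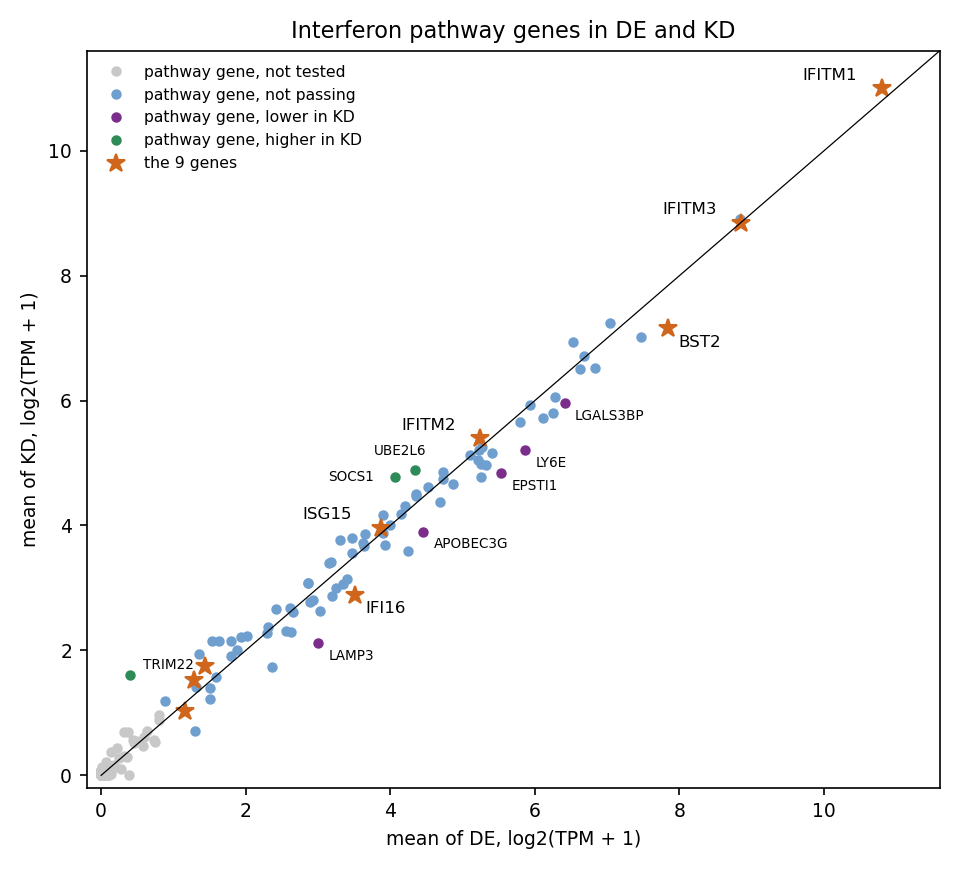
Mean level in KD against mean level in DE, both as log2(TPM + 1), for the interferon pathway genes, tested or not, and the 9 genes, with the line of equality. BST2, EPSTI1, LY6E, APOBEC3G, LAMP3 and LGALS3BP lie below the line, TRIM22, SOCS1 and UBE2L6 lie above it, and IFITM1 and IFITM3 lie on or close to it at the upper end.

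Cell identity genes also differed between the groups, where 1.5% of all tested genes fell and 1.77% rose. Of 12 definitive endoderm markers 6 fell and 0 rose, and their summed level was 25743 to 29440 TPM in DE and 18617 to 20448 TPM in KD. Most of that sum was CER1, a secreted inhibitor of Nodal signalling, at 23570.1 ± 1560.5 and 16815 ± 773 TPM (adjusted p = 0.0406). GATA4 went from 191 ± 11.3 to 104 ± 13.6 TPM, CXCR4 from 238 ± 31.4 to 120.0 ± 18.3 TPM, and FOXA2 and OTX2 fell too. Of 12 pluripotency markers 7 rose and 0 fell, with a summed level of 3495 to 4422 TPM in DE and 4668 to 5281 TPM in KD. SOX2 went from 73.8 ± 6.71 to 146 ± 8.73 TPM, and POU5F1, NANOG and DPPA2 rose too. Leaving out 1 library gave 0 to 7 lower endoderm markers: 0 without DE replicate 1 or KD replicate 2, and 3 without DE replicate 2 or KD replicate 3. It gave 2 to 6 higher pluripotency markers: 2 when DE replicate 1 was left out or either of KD replicates 1 and 2, and 4 when DE replicate 2 was. The part of this shift in the lower BST2 was not tested. Markers of immune cells, which express many interferon-induced genes, were low: CD68 was listed at 0 in all libraries, and of 10 markers 2 were tested and 0 passed, NCAM1 among them with an adjusted p of 0.105, and of 0.0274, as lower, with the block. Their summed level was 7.95 to 11.8 TPM in DE and 7.15 to 8.49 TPM in KD. Of 8 endothelial markers VWF fell and KDR rose, and of 9 fibroblast markers THY1 rose; PDGFRB, PDGFRA and COL1A1 did not pass.

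Genes with the most similar pattern over the 6 libraries were picked by the Euclidean distance between mean-centred log2(TPM + 1) values. For BST2 these were PDE6B (distance 0.116), KIF13B (0.122) and AGPAT3 (0.128). PDE6B, a subunit of a retinal phosphodiesterase, was at 8.32 ± 1.07 and 4.80 ± 0.649 TPM, with an adjusted p of 0.0581. KIF13B, a kinesin motor, and AGPAT3, an enzyme of phospholipid synthesis, fell with adjusted p-values of 0.0475 and 0.0399. For IFITM1 the nearest were RITA1 (0.0584), DDX49 (0.0828) and SYNJ2 (0.0847), and for IFITM3 they were LRRC37B (0.0555), TPM3 (0.0621) and FYN (0.0662). Neither set held a gene that passed the test. The distance takes in the difference between DE and KD, so whether these genes passed follows from how they were picked. Their p-values add no support to the change of BST2 or to the lack of one in IFITM1 and IFITM3. These distances describe 6 libraries and were not tested.

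The neighbours of BST2 gave different values on its 2 sides. BISPR, a long noncoding RNA gene whose start lies 38 bases from BST2 and which shares its promoter region, was at 4.54, 3.76 and 3.62 TPM in DE and at 2.81, 2.55 and 3.04 TPM in KD. It was lower in every KD library, with a log2 change of -0.39 (SE 0.145, adjusted p = 0.260), which did not pass. GTPBP3, the nearest tested gene on the other side, is 60204 bases away and had a log2 change of 0.06 (adjusted p = 0.942). Beside ISG15, the transcription factor gene HES4 lies 966 bases away and was at 2.37 ± 0.779 and 0.747 ± 0.338 TPM (adjusted p = 0.0953, and 0.0390 with the block), while AGRN on the other side had a log2 change of 0.04. IFI27L1, 990 bases from IFI27, had a log2 change of -0.03. B4GALNT4, the gene beyond IFITM3, passed as lower with the block only (adjusted p = 0.0271). The nearest tested genes of IFI6 (AHDC1 and FAM76A), IFI16 (CD1D and AIM2) and IRF1 (SLC22A5 and RAD50) had log2 changes from -0.15 to 0.13, and none passed.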

How the data were processed

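The authors deposited 1 table of TPM, with 58830 genes and 6 libraries, in which each column sums to 1000000. Per the submitters' processing notes, the tools were featureCounts, DESeq2 and HISAT2 2.1.0, on GRCh38. The annotation release, strand setting and read length were not given in the sources used here. Each value is relative to the library total, so a larger mitochondrial share lowers all other values. Reads per library were estimated, for depth and 1 added alternative, from TPM times GENCODE 29 exon lengths in 37138 genes, where 88.3% to 89.0% of values under 50 reads lay within 0.02 of a whole number.

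Genes that reached 1 TPM in 3 or more of the 6 libraries were tested on log2(TPM + 1), a scale that understates changes of low genes. Limma 3.58.1 in R 4.3.3 (group term, eBayes with trend, 2-sided, Benjamini-Hochberg over all genes) gave every adjusted p. It was tested on simulated data with independent noise for each gene and with changes set in genes above low levels only. Shifts shared by a whole library, such as that of the mitochondrial share, were not simulated. The members and lists were chosen with earlier results of these data known. Named genes are the 9 members, GATA6-AS1 and GATA6, up to 4 genes with the smallest p from each list and all called genes where a list had 5 or fewer, the 3 nearest patterns and the adjacent tested genes. MX1, OAS1, RSAD2, IFI44L, IFIT1, PLSCR1, IFNL3, CER1, SAMHD1 and CD68 were named after their values were seen, as were the overlapping genes AC136475.5 and C5orf56. A few genes covered by this rule were left out of the text.

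Same-numbered libraries of the groups deviated together (correlations 0.108, 0.144 and 0.347 over 17711 genes, all above 0.1), so the numbers were treated as pairs in the fit with a replicate block. The labels name no shared culture or day, and the unmatched pair of DE replicate 2 and KD replicate 1 had a correlation of 0.121.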

Additional observations from a re-analysis of the deposited data

How the results depend on the processing

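The direction of BST2 was the same under all 19 alternatives (log2 change -0.72 to -0.59, adjusted p 0.000929 to 0.116), and so was that of IFI16 (-0.75 to -0.52, adjusted p 0.00528 to 0.258). The causes of the changes below were not tested. The fit reported above called 579 genes in all and 1 of the 9. The counts were 239 and 0 with no filter on low values, 106 and 0 at an adjusted p of 0.01, and 1053 and 2 at 0.1. They were 1735 and 2 with quantile normalization, 1753 and 2 with median-ratio scaling, and 1682 and 2 without the mitochondrial genes. Without replicate 3 of both groups they were 1212 and 2. With the replicate block they were 2215 and 2, the same 2 genes named above. Of the alternatives chosen after seeing the data, voom on estimated reads gave 1850 and 2, and the replicate block without the mitochondrial genes gave 2760 and 2. Leaving out 1 library gave 87 to 610 genes and 0 to 2 of the 9.

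The sign of IFITM3, which never passed, turned to 0.0046 with median-ratio scaling, 0.0081 without the mitochondrial genes, with or without the block, 0.0037 without replicate 3 of both groups and 0.0091 with voom, and it ranged from -0.026 to 0.026 when 1 library was left out. ISG15 ranged from -0.13 to 0.30 in the same way. Depth was lowest for IFI6, at 5 to 13 estimated reads per library, and IFI27, at 20 to 36.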
